A study of Mus musculus with 6 samples.

Results

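Basement membrane genes were examined in osteogenic cultures of mouse bone marrow mesenchymal stem cells (mBMSCs), the adherent marrow stromal cells that can form osteoblasts. The 10 genes were Col4a1, Col4a2, Lama2, Lama4, Lamb1, Lamc1, Nid1, Nid2, Hspg2 and Col18a1. They were matched by gene name among the 54532 genes of the deposited tables, and all 10 passed the filter on low counts that left 14624 genes for testing. Primary wild-type cells at 70% confluence were induced for 7 days with dexamethasone (100 nM in the sample labels, a lower concentration in the paper's methods), ascorbic acid at 50 μg/mL and β-glycerophosphate at 10 mM. The Ni group (n = 3) received 0.1 μM NiCl2 throughout induction and the control group (Con, n = 3) received vehicle, so that every library came from osteogenic medium and no undifferentiated culture served as a baseline. Each group held 3 cultures described by the submitters as independent biological replicates, and the age and sex of the donor mice and any pooling were not given in the sources used here. RNA was sequenced to between 16101033 and 18642504 counted reads per library.

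Basement membranes are thin sheets of extracellular matrix that underlie epithelia and endothelia and wrap muscle, fat and nerve cells. Laminins, trimers of an alpha, a beta and a gamma chain, assemble first on the cell surface, where integrins and dystroglycan hold them. A second network of type IV collagen gives the sheet its strength, and nidogens and the heparan sulfate proteoglycan perlecan link the networks. In marrow, basement membrane components surround sinusoids and adipocytes, and stromal cells themselves secrete several of them.

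No difference between Ni and control libraries passed the test in the 10 genes. None had an adjusted p under 0.05 in the quasi-likelihood test of edgeR (Benjamini-Hochberg adjustment), where the adjusted p ranged from 0.293 to 0.658 over the members and 0% of all genes tested were called. At an unadjusted p under 0.05, 4 members were higher in the Ni libraries (Lama2, Lama4, Hspg2 and Col18a1), against 7.59% of all genes tested, and 0 were lower, against 5.83%. DESeq2's Wald test called 0 members higher, where it called 1.44% of genes. The fitted log2 fold change (log2FC, Ni against control, with its standard error, SE) was positive for 9 of the 10 and negative for Nid2, with a median of 0.24 beside -0.01 over all genes tested. The libraries were also scaled to the summed counts of 12 general stromal marker genes, which moved the median of all genes to -0.35. These markers were Pdgfra, Pdgfrb, Thy1, Prrx1, Twist1, Twist2, Cav1, Cavin1, Cald1, Axl, Fstl1 and Rcn3. Fstl1 weighed most in the sum, with the highest counts of the 12 in every library. Among the 11 tested, the log2FC before this scaling ran from -0.07 (Thy1) to 0.65 (Rcn3). With this scaling the signs of Col4a1, Col4a2, Lamb1, Lamc1 and Nid1 turned negative and the members' median was -0.07. Under that scaling Nid2, with lower levels in Ni, was the 1 member at an unadjusted p under 0.05, where 26.5% of genes were lower and 1.85% were higher.

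**Figure D1:**
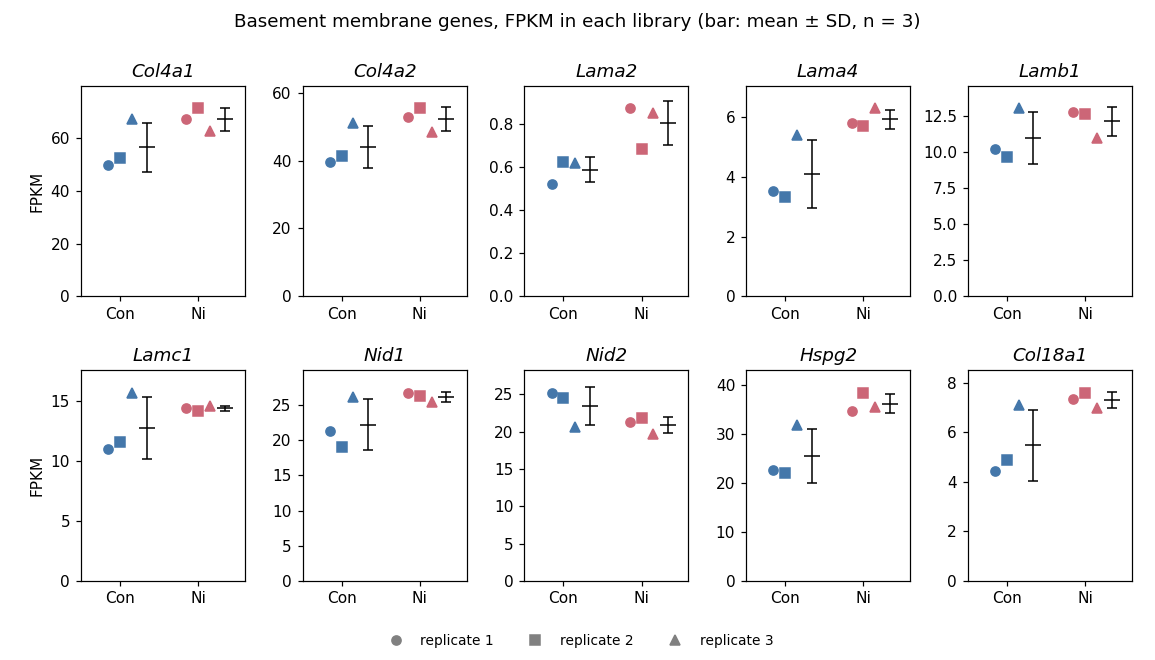
FPKM (reads per kilobase of gene length, scaled to library size) of each of the 10 genes in each library, with controls in blue, Ni libraries in red, the replicate number shown by the symbol and the black bar giving the mean ± SD (n = 3). Control replicate 3 (blue triangle) lies inside or beyond the Ni range for 7 of the 10 genes, and the 3 Ni libraries lie above all controls for Lama2, Lama4 and Hspg2.

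Control replicate 3 stood apart from the other controls in these genes. For 9 of the 10 members it was nearer to the mean of the Ni libraries than to the mean of control replicates 1 and 2, the exception being Lama2. The 10 genes together took 0.153%, 0.151% and 0.200% of all counts in the controls, in replicate order, and 0.201%, 0.214% and 0.196% with nickel. Without control replicate 3, 7 members were called higher at an adjusted p under 0.05 (Col4a1, Col4a2, Lama4, Lamc1, Nid1, Hspg2 and Col18a1) and 0 were called lower. In that fit 8.69% of 15044 genes were called higher and 6.49% lower, so the calls of the members rested on which controls were compared. The labels give no reason to leave this library out, and the fits that follow keep it unless stated.

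The type IV collagen genes, which encode the chains of the most widespread type IV collagen trimer, were the most abundant members. Both lie on chromosome 8 of GRCm38 and are read in opposite directions from adjoining starts, Col4a1 (ENSMUSG00000031502) on the minus strand from 11198423 to 11312826 and Col4a2 (ENSMUSG00000031503) on the plus strand from 11312805 to 11449287. The annotated first exons share 22 bases. The stretch is shown because both genes start in it and because their levels are compared here. It is given on the plus strand (RefSeq, GRCm38.p6), chr8:11312801-11312830, with the shared bases in capitals and 80.0% G or C.
Col4a1-Col4a2 start: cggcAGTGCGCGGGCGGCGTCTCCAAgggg

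Col4a1 had levels of 49.8, 52.5 and 67.0 FPKM (reads per kilobase of gene length, scaled to library size) in the controls, in replicate order here and for each gene after it, and 67.3, 71.2 and 62.6 FPKM in the Ni libraries. Col4a2 had levels of 39.6, 41.3 and 51.1 FPKM in the controls and 52.9, 55.3 and 48.3 FPKM in the Ni libraries. For both genes 2 controls lay under all Ni libraries and control replicate 3 lay among them, so the groups overlapped. Ni against control, the log2FC was 0.24 for Col4a1 (SE 0.13, adjusted p = 0.436 in edgeR) and 0.24 for Col4a2 (SE 0.12, adjusted p = 0.413). Scaled to the stromal list, these were -0.07 and -0.08. Without control replicate 3 they were 0.39 and 0.37 (adjusted p = 0.0120 and 0.0169). The chains kept close to a fixed proportion in every library, with a Col4a1:Col4a2 FPKM ratio of 1.28 ± 0.026 (SD, n = 3) in controls and 1.28 ± 0.011 (SD, n = 3) in Ni libraries. The groups did not differ in this ratio beyond the spread between libraries (exact permutation test, two-sided, p = 0.9, where 3 against 3 cannot give less than 0.1). The difference was 0.005 on the log2 scale and lay from -0.007 to 0.021 with each library left out.

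Among the laminin chains, the alpha chain genes Lama2 and Lama4 had the lowest levels and among the largest differences. Lama4 (ENSMUSG00000019846, chromosome 10, 38965515 to 39110188, plus strand) encodes an alpha chain typical of vessel walls and mesenchymal cells. Its levels were 3.53, 3.35 and 5.40 FPKM in the controls and 5.79, 5.72 and 6.30 FPKM in the Ni libraries. All Ni libraries were above all controls, although control replicate 3 came close. Its log2FC of 0.53 (SE 0.17, adjusted p = 0.306 in edgeR) was the highest of the 10. It was 0.79 without control replicate 3 (adjusted p = 0.000308) and 0.56 with the replicate number as a block (adjusted p = 0.0491), a fit in which Lama4 was the single member called and 1.55% of genes were called higher; with gene-length trends also removed the block gave an adjusted p of 0.0657. Scaled to the stromal list, the value for Lama4 was 0.24 (SE 0.20, adjusted p = 0.379). Lama2 (ENSMUSG00000019899, chromosome 10, 26980036 to 27619758, minus strand) encodes the alpha chain of muscle and peripheral nerve basement membranes. Its reads were the fewest of the members, numbering 158, 163 and 171 in controls and 264, 197 and 254 with nickel. In FPKM these were 0.525, 0.624 and 0.622 in the controls and 0.875, 0.687 and 0.855 in the Ni libraries, so the groups did not overlap and control replicate 3 stayed with the controls. This gave a log2FC of 0.45 (SE 0.16, adjusted p = 0.323), and of 0.11 (SE 0.23) when scaled to the stromal list. Of the exon bases of Lama2, 631 (3.86%) also belong to a gene on the opposite strand, and whether reads were counted by strand is not given in the sources used here.

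Lamb1 and Lamc1 encode the beta and gamma chains that most laminins share. Lamb1 (ENSMUSG00000002900, chromosome 12, 31265234 to 31329644, plus strand) had levels of 10.2, 9.67 and 13.0 FPKM in the controls and 12.8, 12.6 and 11.0 FPKM in the Ni libraries. Lamc1 (ENSMUSG00000026478, chromosome 1, 153218922 to 153332786, minus strand) had levels of 11.0, 11.6 and 15.7 FPKM in the controls and 14.4, 14.2 and 14.7 FPKM in the Ni libraries. For each of these genes control replicate 3 was the highest of all 6 libraries, and the groups overlapped. Fitted log2FC values were 0.14 for Lamb1 (SE 0.13, adjusted p = 0.658 in edgeR) and 0.17 for Lamc1 (SE 0.13, adjusted p = 0.605). Both were negative under scaling to the stromal list, at -0.17 and -0.14. Without control replicate 3 the log2FC was 0.29 for Lamb1 (adjusted p = 0.0656) and 0.35 for Lamc1 (adjusted p = 0.0169).

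The nidogens, rod-shaped linkers between laminin and type IV collagen, differed from each other in sign in the fit of all libraries. Nid1 (ENSMUSG00000005397, chromosome 13, 13437551 to 13512269, plus strand) had levels of 21.4, 19.1 and 26.2 FPKM in the controls and 26.8, 26.3 and 25.4 FPKM in the Ni libraries. Nid2 (ENSMUSG00000021806, chromosome 14, 19751265 to 19811787, plus strand) had levels of 25.2, 24.6 and 20.6 FPKM in the controls and 21.2, 21.8 and 19.7 FPKM in the Ni libraries. Nid2 was thus lower in control replicate 3 and the Ni libraries than in control replicates 1 and 2, the mirror of Nid1, while the sum of the nidogens kept within 43.7 to 48.1 FPKM in all 6 libraries. Nickel gave a log2FC of 0.23 for Nid1 (SE 0.12, adjusted p = 0.429 in edgeR) and -0.17 for Nid2 (SE 0.10, adjusted p = 0.510). Scaled to the stromal list, both values were negative, at -0.09 for Nid1 (SE 0.22) and -0.53 for Nid2 (SE 0.23, adjusted p = 0.141). Without control replicate 3 the values were 0.37 for Nid1 (adjusted p = 0.0143) and -0.25 for Nid2 (adjusted p = 0.0878). The Nid1:Nid2 FPKM ratio was 0.848, 0.777 and 1.27 in the controls and 1.26, 1.20 and 1.29 with nickel. Nid2 therefore exceeded Nid1 in 2 of the controls and Nid1 exceeded Nid2 elsewhere, and the groups overlapped (log2 difference 0.41, exact permutation test, two-sided, p = 0.3, adjusted over 3 ratios 0.9). Without control replicate 3 the log2 difference was 0.62. Of the exon bases of Nid2, 437 (8.45%) are shared with Rtraf on the opposite strand, the largest such share among the members. Rtraf itself had a log2FC of 0.06 (SE 0.10).

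**Figure D2:**
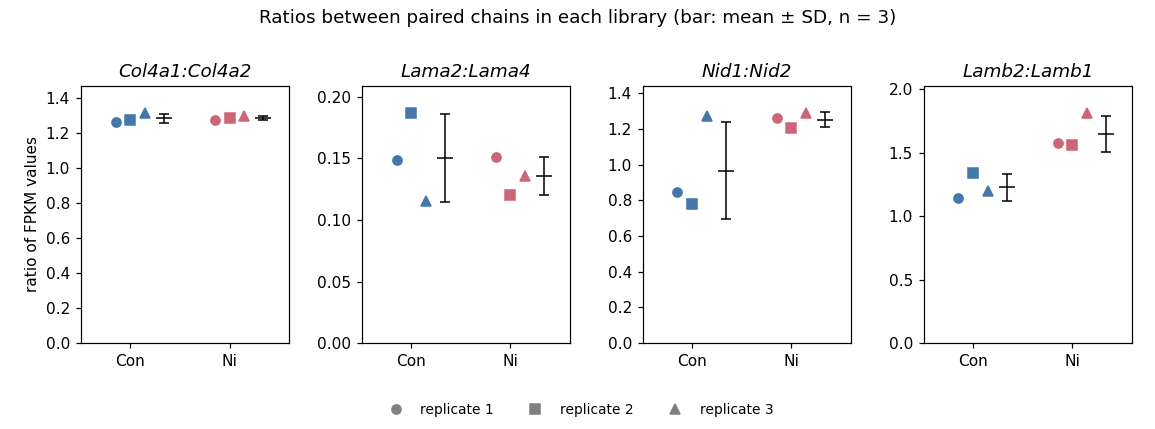
Ratio of the FPKM values of paired chains in each library, with controls in blue, Ni libraries in red, the replicate number shown by the symbol and the black bar giving the mean ± SD (n = 3). The Col4a1:Col4a2 ratio stays between 1.26 and 1.31 in all 6 libraries, the Nid1:Nid2 ratio of control replicate 3 lies with the Ni libraries, and the Lamb2:Lamb1 ratio is higher in all Ni libraries than in all controls.

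Hspg2 and Col18a1, the heparan sulfate proteoglycans of the set, were among the members with the larger differences. Hspg2 (ENSMUSG00000028763, chromosome 4, 137468769 to 137570630, plus strand) encodes perlecan, which binds growth factors through its heparan sulfate chains. Its levels were 22.7, 22.0 and 32.0 FPKM in the controls and 34.8, 38.5 and 35.6 FPKM in the Ni libraries, with all Ni libraries above all controls. Perlecan's log2FC was 0.50 (SE 0.15, adjusted p = 0.293 in edgeR), and it was 0.70 without control replicate 3 (adjusted p = 0.000304) and 0.20 (SE 0.23, adjusted p = 0.516) when scaled to the stromal list. Col18a1 (ENSMUSG00000001435, chromosome 10, 77052178 to 77166548, minus strand) encodes collagen XVIII, the parent of the fragment endostatin. Its levels were 4.41, 4.86 and 7.11 FPKM in the controls and 7.34, 7.59 and 6.97 FPKM in the Ni libraries, so control replicate 3 lay within the Ni range. For Col18a1 the log2FC was 0.42 (SE 0.17, adjusted p = 0.347), and it was 0.66 without control replicate 3 (adjusted p = 0.00147) and 0.12 (SE 0.20, adjusted p = 0.675) when scaled to the stromal list. On log2 CPM, the counts scaled to library size, 3 members had groups that did not overlap and were higher in Ni (Lama2, Lama4 and Hspg2), against 7.97% of all genes tested, and 0 were lower, against 6.71%. With no filter on low counts, edgeR called Lama4, Hspg2 and Col18a1 higher (3 members), where 2.55% of 25876 genes were called.

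**Figure D3:**
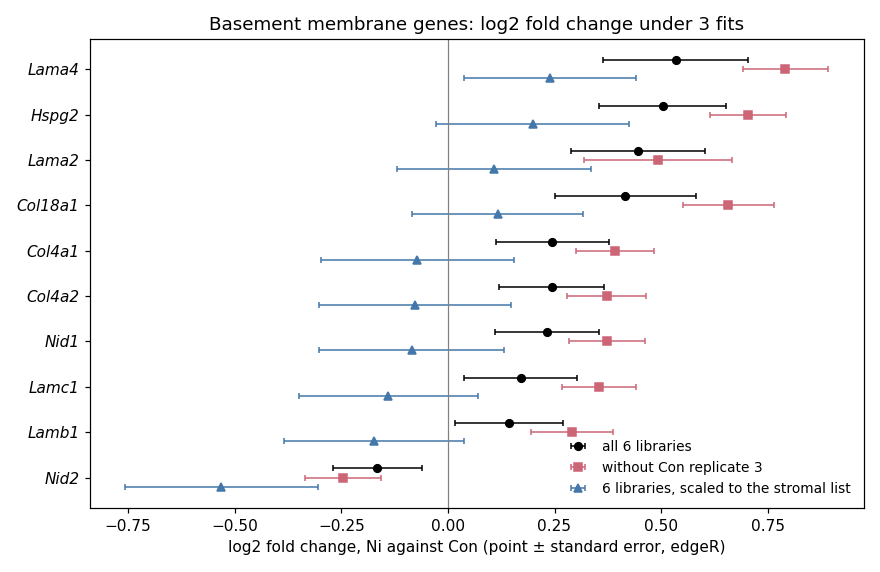
Log2FC of each of the 10 genes, Ni against control, with its SE in edgeR, from all 6 libraries (black), without control replicate 3 (red) and with the 6 libraries scaled to the general stromal list (blue). Lama4 is highest at 0.53 and Nid2 lowest at -0.17 in the fit of all 6 libraries, values without control replicate 3 are farther from 0, and 5 genes change sign under the stromal scaling.

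Windows around the annotated start (250 bases before to 50 after, RefSeq, GRCm38.p6) were given for 7 of the 10 members (not Lama4, Lamc1 or Nid2), with 8 windows in all because Col18a1 has an outer and an inner start. These were searched for 4 motifs on both strands, beside the 32851 windows of all genes. The member windows held from 50.3% (Lama2) to 74% (Col4a1) G or C, beside a mean of 53.8% over all windows. The shares of windows with a motif were not matched for this content. The GC box, GGGCGG, is in 35.7% of all windows and was in 7 of the member windows, the exception being the inner start of Col18a1. The windows of Col4a1 and Col4a2 overlap by 78 bases, and the 1 GC box of the Col4a1 window lies there, so that this site is counted in both windows. The letters CCAAT are in 37.4% of all windows and were in 5 of the member windows. The letters TATAAA are in 13.6% of all windows and were in 0 of the member windows. The letters CCACCC are in 31.5% of all windows and were in 6 of the member windows. Stretches upstream of Hspg2 and Lamb1 are shown because, of the members with a window, these had the highest and the lowest positive log2FC. Capitals mark any of the searched letters. The Hspg2 stretch, chr4:137468553-137468768 on the plus strand, held the GC box 5 times. The Lamb1 stretch, chr12:31265043-31265233 on the plus strand, held it 2 times and also held CCAAT. Neither stretch touches an annotated exon, and a match of letters is a description only.
Hspg2 upstream: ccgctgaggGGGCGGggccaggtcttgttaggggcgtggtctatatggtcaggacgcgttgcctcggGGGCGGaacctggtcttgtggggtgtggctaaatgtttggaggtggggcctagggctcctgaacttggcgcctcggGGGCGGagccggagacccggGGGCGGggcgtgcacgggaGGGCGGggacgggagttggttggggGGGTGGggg
Lamb1 upstream: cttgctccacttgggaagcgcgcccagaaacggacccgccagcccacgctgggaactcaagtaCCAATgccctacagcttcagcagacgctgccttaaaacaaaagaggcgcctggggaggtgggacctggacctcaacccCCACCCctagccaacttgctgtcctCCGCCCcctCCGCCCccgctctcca

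The order of the levels per length differed with the library. In controls the mean FPKM fell in the order Col4a1, Col4a2, Hspg2, Nid2, Nid1, Lamc1, Lamb1, Col18a1, Lama4 and Lama2, from 56.5 to 0.590. Of the 9 neighbouring pairs in that order, 5 had overlapping control ranges: Col4a1 with Col4a2, Hspg2 with Nid2, Nid2 with Nid1, Lamc1 with Lamb1, and Col18a1 with Lama4. In the Ni libraries the order was the same except that Nid1 stood above Nid2, and 0 of the 9 pairs overlapped. Laminin alpha chains, summed over the 5 alpha genes, held from 5.56 to 8.21 FPKM in controls and from 8.59 to 8.99 FPKM in Ni libraries. Lama4 made up from 60.2% to 65.8% of that sum in controls and from 66.4% to 70.1% in Ni libraries. The Lama2:Lama4 ratio was 0.150 ± 0.036 (SD, n = 3) in controls and 0.136 ± 0.015 (SD, n = 3) in Ni libraries, with overlapping groups (log2 difference -0.13, exact permutation test, two-sided, p = 0.7, adjusted over 3 ratios 0.9). That difference was -0.30 without control replicate 3 and 0.04 without control replicate 2, where its sign turned. Beta chains summed to between 21.9 and 28.7 FPKM in controls and between 30.9 and 33.0 FPKM in Ni libraries, and gamma chains to between 11.0 and 15.9 FPKM and between 14.4 and 14.8 FPKM.

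The remaining type IV collagen and laminin chain genes were counted by the same test. Of 11 such genes, 6 passed the filter and 0 were called in edgeR. At an unadjusted p under 0.05, 3 were higher, against 7.59% of all genes tested, and 1 was lower, against 5.83%. Col4a3, Col4a4, Col4a6, Lamb3 and Lamc3 did not pass the filter. Lamb2, the beta chain of vessel and neuromuscular basement membranes, had levels of 11.6, 13.0 and 15.6 FPKM in the controls and 20.1, 19.7 and 19.9 FPKM in the Ni libraries. Its log2FC was 0.57 (SE 0.11, adjusted p = 0.208 in edgeR), with every Ni library above every control. It was 0.70 without control replicate 3 (adjusted p = 0.000418) and 0.24 (SE 0.21, adjusted p = 0.386) when scaled to the stromal list. The Lamb2:Lamb1 ratio, chosen after the values had been seen, was 1.14, 1.34 and 1.20 in the controls and 1.57, 1.56 and 1.81 in the Ni libraries, a log2 difference of 0.43 (exact permutation test, two-sided, p = 0.1, the smallest it can give; adjusted over 4 ratios 0.4). Control replicate 3 lay between the other controls in this ratio, and not with the Ni libraries. Col4a5, an alpha chain of a less widespread type IV collagen, had a log2FC of 0.56 (SE 0.15, adjusted p = 0.262). Lama1, the laminin alpha chain of early embryos, was the gene lower at an unadjusted p under 0.05, chosen here after its value was seen; it had levels of 0.735, 0.691 and 0.626 FPKM in controls and 0.358, 0.529 and 0.375 FPKM in Ni libraries (log2FC -0.70, SE 0.22, adjusted p = 0.295).

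Other matrix proteins of basement membranes, their assembly enzymes, receptors and degrading enzymes were counted in lists. Of 13 other matrix genes tested of 19, 0 were called, and at an unadjusted p under 0.05 there were 4 higher and 1 lower; 8 had positive values and the median log2FC was 0.35. Sparc, a collagen-binding glycoprotein of bone that also binds type IV collagen, had a log2FC of 0.82 (SE 0.21, adjusted p = 0.257). The values were 0.50 for Fbln2 (SE 0.24), 0.81 for Smoc2 (SE 0.18) and 0.87 for Col15a1, the close relative of Col18a1 (SE 0.21). Of 24 assembly and processing genes, all tested, 0 were called and at an unadjusted p under 0.05 there were 10 higher and 1 lower, with a median of 0.27. Serpinh1, the collagen chaperone, had a log2FC of 0.74 (SE 0.18, adjusted p = 0.248), P4ha1, a prolyl hydroxylase subunit, of 0.71 (SE 0.20), and P4hb, its partner subunit, of 0.27 (SE 0.11). These enzymes also serve fibrillar collagens.

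Of 17 receptors, all tested, 0 were called, and the median was 0.21. An unadjusted p under 0.05 was reached by 6 with higher levels and by 0 with lower ones. The shares over all genes tested were 7.59% higher and 5.83% lower, here and for breakdown. Itgb1, the beta subunit of the main laminin and collagen integrins, had a log2FC of 0.21 (SE 0.14, adjusted p = 0.562), and its groups overlapped. Gpc1 and Sdc3, cell surface heparan sulfate proteoglycans, had values of 0.84 (SE 0.17, adjusted p = 0.208) and 0.27 (SE 0.11). Itgb4 rested on 7 to 50 counts per library, with a log2FC of 1.53 (SE 0.43). Of 18 genes for breakdown and its inhibitors, all tested, 0 were called; an unadjusted p under 0.05 was reached by 7 with higher levels and by 1 with a lower one, and the median was 0.30. Mmp2, a gelatinase that cuts type IV collagen, had a log2FC of 0.51 (SE 0.16) and Adamts1 of 0.46 (SE 0.14). The lysosomal proteases Ctss and Ctsb were at -0.07 (SE 0.12) and -0.06 (SE 0.13). The breakdown gene lower at an unadjusted p under 0.05 was Mmp9, chosen here after its value was seen. Its log2FC was -0.83 (SE 0.32, adjusted p = 0.350 in edgeR), and -1.14 when scaled to the stromal list. Scaled to the stromal list, the medians were 0.23 for the remaining chains, 0.0022 for the other matrix genes, -0.05 for assembly, -0.11 for receptors and 0.01 for breakdown, so that of assembly and receptors turned negative. Without control replicate 3 the genes called numbered 4 of the remaining chains, 5 of the other matrix genes, 16 of the assembly genes (15 higher and 1 lower), 8 of the receptors and 12 of the breakdown genes. In that fit 8.69% of all genes tested were called higher and 6.49% lower.

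**Figure D4:**
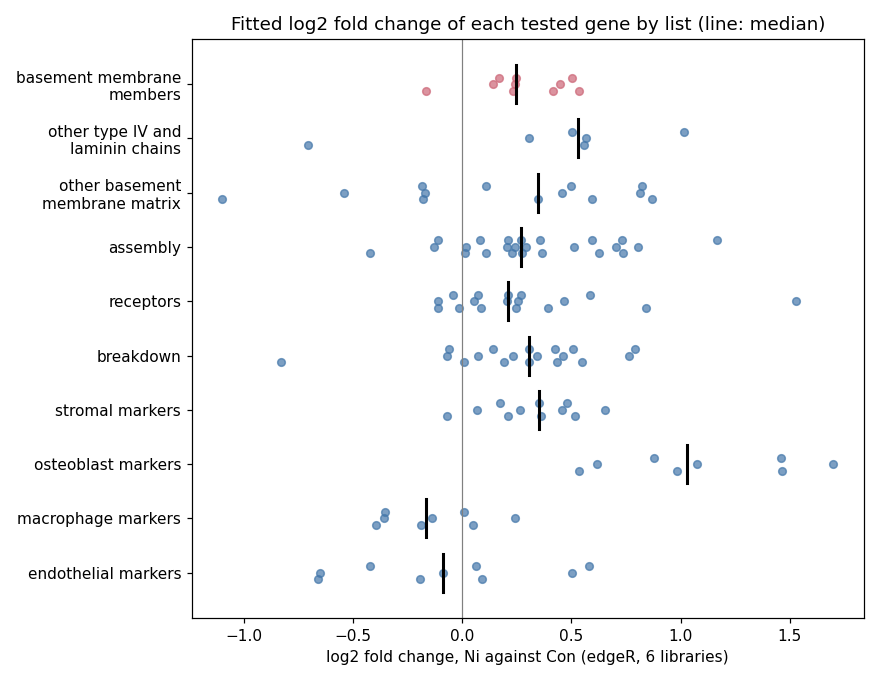
Log2FC, Ni against control, of each tested gene in edgeR by gene list, with the median as a black line and the 10 basement membrane members in red. The members have a median of 0.24, between the general stromal markers at 0.35 and the macrophage markers at -0.16, and the osteoblast markers have a median of 1.03.

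Stromal and osteoblast markers had mostly positive log2FC values, as the members did, whereas 5 of 8 macrophage and 5 of 9 endothelial markers had negative ones, with 0 called in each of these lists. The 12 general stromal markers summed to 358, 353 and 506 FPKM in the controls and to 533, 514 and 519 FPKM with nickel, control replicate 3 being the highest control as in most members. Of the 11 tested, 10 had positive values and the median log2FC was 0.35. All 8 osteoblast markers had a positive value, with a median of 1.03, and summed to between 460 and 1324 FPKM in controls and between 1454 and 2989 FPKM in Ni libraries. Ibsp, a bone matrix sialoprotein gene, made up from 86.3% to 94.6% of that sum, and the other 7 summed to between 58.6 and 100.5 FPKM in controls and between 118.9 and 169.9 FPKM in Ni libraries. The 8 macrophage markers summed to between 2246 and 2402 FPKM in controls and between 2020 and 2219 FPKM in Ni libraries, so these cultures held abundant macrophage transcripts beside the labelled mesenchymal cells. Endothelial cells, major makers of basement membrane, had markers at low levels: 9 endothelial markers summed to between 11.7 and 16.5 FPKM in controls and between 10.2 and 12.2 FPKM in Ni libraries, with a median log2FC of -0.09. Pecam1, an adhesion molecule also made by leukocytes, had the highest level of the 9 in every library and weighed most in that sum. Its levels were 7.44, 8.65 and 4.23 FPKM in the controls and 4.05, 5.15 and 3.76 FPKM with nickel (log2FC -0.65, SE 0.25). Over the 6 libraries Cdh5, the endothelial cadherin, ranged from 1.68 to 2.94 FPKM and Kdr, a VEGF receptor, from 0.178 to 0.457 FPKM. Of the 4 endothelial markers with positive values, Emcn (0.58, SE 0.27) and Egfl7 (0.50, SE 0.25) had the highest. The part of these cells in the differences of the members was not tested, and in bulk RNA fewer cells of a type and less RNA per cell cannot be told apart.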

How the data were processed

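Libraries of 3 control and 3 Ni cultures were analysed from the deposited tables. The authors deposited raw counts per gene (GRCm38 per the labels), FPKM values of the same genes and an annotation table with gene lengths. The aligner, counting tool, strand setting and RNA-seq test are not given in the sources used here. Deposited FPKM equalled counts divided by gene length and 1 factor per library. Within groups, chi-square per degree of freedom was 4.37 to 43.6, so no library was taken as a repeat of another. This does not show that the cultures were independent, which rests on the submitters' description. Genes kept by filterByExpr were normalized by TMM and tested by edgeR 4.0.16 (glmQLFit, glmQLFTest, robust; R 4.3.3) with Benjamini-Hochberg adjustment over all genes tested; the standard error is the log2 fold change divided by the root of F. Alternatives were DESeq2 1.42.0, limma 3.58.1 on log2(FPKM + 1) and log2(FPKM + 0.1), other scalings and filters, each library left out, a replicate block and removal of gene-length trends. Group overlap used log2 CPM with a prior count of 2. The fits were also run on simulated counts. The planted changes were larger than those of the members and no control stood apart, so that run does not cover these genes. The members and gene lists were chosen with earlier results of these data known. Of each further list, the text names the 2 genes of highest mean FPKM and the 2 of smallest unadjusted p. Marker lists are given by defining markers, the stromal one in full. Ibsp, Pecam1, Emcn, Egfl7, Cspg4, Lama1, Mmp9 and Xylt2 were added after their values were seen. Lama2 had the fewest reads of the members. The largest standard errors in the fit reported were those of Lama4 (0.171) and Col18a1 (0.166), beside 0.157 for Lama2.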

Additional observations from a re-analysis of the deposited data

How the results depend on the processing

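Every alternative kept the sign of the 10 log2 fold changes except scaling to the general stromal list. There Col4a1 was -0.072, Col4a2 -0.077, Lamb1 -0.17, Lamc1 -0.14 and Nid1 -0.085. The members' median, 0.24 in the fit reported, was -0.074 under that scaling. There 1 member, Nid2, passed an unadjusted p of 0.05 with lower levels (-0.53), as did 26.5% of genes. Lama4 and Hspg2 did not overlap and were higher, against 3.08% of all genes tested. Lamb1 and Lamc1 did not overlap and were lower, against 14.6%. Normalization by DESeq2's size factors or library totals, the stricter count filter, limma on either FPKM scale and removal of the gene-length trend moved no count of calls by over 1.5 times. With no filter on low counts, 3 members were called higher at an adjusted p under 0.05 (2.55% of genes). There 7 members passed an unadjusted p of 0.05, all higher (6.83% of genes). That setting gave 2, 5, 9, 5 and 4 calls among the remaining chains, other matrix, assembly, receptor and breakdown genes, all higher except Xylt2. DESeq2 gave 1, 3, 3 and 1 calls in the first 4 of these lists, all higher, where it called 1.44% of genes higher. The cause was not tested. With each library left out in turn, members called ranged from 0 to 7, members at an unadjusted p under 0.05 from 2 to 10, members with groups that did not overlap from 3 to 10 and the median from 0.19 to 0.38, the highest of each without control replicate 3. In that fit 9 members were higher and 1 lower by both measures, where the unadjusted p was under 0.05 with higher levels in 15.2% of genes and with lower levels in 12.2%, and 22.2% were higher and 20.8% lower without overlap. Without Ni replicate 3, 6 members did not overlap, all higher (11.4% of genes). Without control replicate 1, Ni replicate 1 or Ni replicate 3, 2 members passed an unadjusted p of 0.05, Lama4 and Hspg2, both higher. Of all genes tested, 4.07%, 4.24% and 4.64% were higher at that p in these fits, in the same order. Calls in the further lists ranged from 0 to 4, 0 to 5, 0 to 16, 0 to 8 and 0 to 12. The highest of each was without control replicate 3, where 8.69% of genes were called higher and 6.49% lower. Deviations from the group means correlated at 0.01, 0.26 and 0.14 between libraries of equal number, not over 0.1 in every pair, so equal numbers were not taken as pairs. A replicate block gave 1 member called and 2, 2, 4 and 2 calls in the first 4 lists, all higher, where 1.55% of genes were called higher. With the gene-length trend also removed, the block gave 2, 2, 4 and 2 calls in those lists. With 3 libraries against 3, ratios cannot reach a permutation p under 0.1.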

Other observations

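The genes whose log2 CPM followed the mean of the 10 members most closely over the 6 libraries were Pkm, a glycolytic enzyme gene, Slc16a3, a lactate exporter gene, Aebp1 and Col3a1, genes of collagenous matrix, and Nfatc4, a transcription factor gene, with Pearson's r from 0.9985 to 0.9998. The log2 fold changes of these 5 genes were 0.30, 0.61, 0.55, 0.46 and 0.46. Of all genes tested, 39 had an r over 0.99 and 1057 an r over 0.9, and the likeness is given as a description of libraries in which control replicate 3 sits with the Ni group.

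Markers of other basement membrane-bearing cells differed in level and direction. The 8 mural cell markers summed to between 8.81 and 9.82 FPKM in controls and between 10.2 and 12.3 FPKM in Ni libraries, without overlap. Of these, 7 had positive values and 1 a negative one, with a median log2 fold change of 0.44. At an unadjusted p under 0.05, 2 were higher, against 7.59% of all genes tested. Cspg4, at 1.21 (SE 0.21), had the smallest adjusted p of all genes tested (0.185 in edgeR). Scaled to the stromal list, the mural median was 0.11, with 4 positive values. The 7 adipocyte markers summed to between 87.8 and 116 FPKM in controls and between 77.1 and 105 FPKM in Ni libraries, so the ranges overlapped. The 5 Schwann cell markers summed to at most 0.399 FPKM in any library.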
